A study of Mus musculus with 8 samples.

Results

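The genes examined here were the noncoding genes and pseudogenes that lie between the alpha-defensin genes of the mouse. They were chosen by position and gene type alone: every gene of the deposited count table that GENCODE places on chromosome 8 of GRCm39 wholly between 21.4 and 22.3 Mb, with any type other than protein coding. The rule found 34 of 55414 genes. The same interval holds 28 protein-coding Defa genes and 3 other coding genes, which are used here only where they share sequence or position with one of the 34. The counts came from Paneth cells sorted from the small intestine of wild-type mice (C57BL/6J per the study's methods) 3 hours after an injection of phosphate-buffered saline (PBS, the control) or tumor necrosis factor (TNF, an inflammatory cytokine), with 4 libraries per group. Per the study's methods cells were pooled after sorting from crypts of the small intestine. Per the labels the libraries were made with a stranded mRNA kit. All 8 libraries are bulk preparations of sorted cells, so fewer transcripts per cell and fewer cells that make a transcript cannot be told apart.

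Alpha-defensins are small cationic antimicrobial peptides that Paneth cells secrete into the crypt. A typical Defa gene has 2 exons: exon 1 encodes the signal peptide and most of the prosegment, and exon 2 encodes the mature peptide, which is held in shape by disulfide bonds between cysteines. Tandem duplication has filled the mouse locus with near-identical copies, some of which have lost their reading frame or an exon and are annotated as pseudogenes. Other pseudogenes are processed, that is, they were copied back into the genome from the mRNA of an unrelated gene. Small nucleolar RNAs (snoRNAs) and small nuclear RNAs (snRNAs) are short structured RNAs that mostly lack a poly(A) tail.

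By sequence the 34 genes fell into 5 kinds. There were 8 defensin copies whose exons aligned with a coding Defa gene (Defa-ps1, Defa-ps4, Defa-ps6, Defa-ps7, Defa-ps10, Defa-ps16, Defa-ps17 and Defa-ps18) and 9 defensin copies with no such alignment (Defa-ps3, Defa-ps5, Defa-ps8, Defa-ps9, Defa-ps11, Gm15300, Gm15305, Gm15311 and Gm15313). There were 9 processed pseudogenes, of which 6 were closest to Zmym5, a zinc finger gene, and 3 to Rpl21, a gene of the large ribosomal subunit. There were 5 snoRNA genes, each inside an intron of a coding Defa gene on the minus strand (Defa29, Defa38, Defa39, Defa42 and Defa43), and 3 snRNA genes. At least 1 count was found for 29 of the 34, and 5 (Defa-ps9, Gm15305, Gm15309, Gm15311 and the snRNA gene Gm24423) had 0 counts in all 8 libraries. Enough counts for the test of TNF against PBS were present for 11 genes: all 8 copies with a coding match and 3 of the 9 copies without one (Gm15300, Defa-ps8 and Gm15313). None of the 9 processed pseudogenes, 5 snoRNA genes and 3 snRNA genes passed that filter.

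The libraries held between 23824717 and 32576077 counts, and the smallest share of counts on coding Defa genes in a library was 32.0%. TNF replicate 4 stood apart: 51.4% of its counts were on coding Defa genes, against at most 37.9% in the other 7 libraries, and its TMM scaling factor was 0.448, against 0.995 to 1.36. Its normalized CPM (CPM of the TMM-scaled library size, where CPM is counts per 1000000) are divided by that factor, and values that turned without this library are given both ways where they bear on a result. Genes that mark Paneth cells were present in every library: the 8 listed markers summed to 421950 to 482143 plain CPM in PBS and to 429277 to 541612 in TNF. The 6 stem cell markers summed to 2568 to 2963 plain CPM in PBS and to 907 to 2478 in TNF, without overlap. Goblet markers (9709 to 14048 in PBS), enterocyte markers (311 to 380) and tuft markers (12.5 to 29.05) overlapped between the groups. The 7 stroma markers, with Col3a1 and Col1a2 at 0 throughout, summed to 0.273 to 0.614 in PBS and to 1.88, 1.69, 1.31 and 0.577 in TNF, so that they overlapped through TNF replicate 4. Immune markers summed to 9.92 to 13.9 plain CPM in PBS and to 11.9 to 30.8 in TNF, where TNF replicate 4 was the highest, and Cd79a, Cd3e and Adgre1 were at 0 throughout. The 5 enteroendocrine markers summed to 10.8 to 16.6 in PBS and 27.3 to 39.7 in TNF.

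Defa-ps8 and Gm15313 had counts in every TNF library and in no PBS library, and their exons are given here first, in transcript direction, with in-frame cysteine codons in capitals. Defa-ps8 (ENSMUSG00000094180) lies on the plus strand between Defa40 and Defa3, with exon 1 at chr8:21760709-21760879 and exon 2 at chr8:21761906-21762013. Gm15313 (ENSMUSG00000084366) lies between Defa26 and Defa17 at chr8:22129087-22130394, also on the plus strand. It has the same bases over all 279 exonic positions of Defa-ps8, so that a single sequence stands for both.
Defa-ps8 exon 1: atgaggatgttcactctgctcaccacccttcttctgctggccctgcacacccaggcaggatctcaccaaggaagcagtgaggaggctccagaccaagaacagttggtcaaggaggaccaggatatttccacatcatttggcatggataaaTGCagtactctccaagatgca
Defa-ps8 exon 2: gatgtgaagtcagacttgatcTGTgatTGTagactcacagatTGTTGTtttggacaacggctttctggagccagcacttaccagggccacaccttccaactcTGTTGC

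Both copies begin with ATG, and their frame has no stop codon in the whole annotated sequence (93 codons in Defa-ps8 and 94 in Gm15313). Read on into the genome, the frame reached its first stop after 99 codons in both. Exon 2 holds 6 in-frame cysteine codons, some of them adjacent. Their spacing was not compared with that of coding Defa genes, so an intact defensin pattern cannot be read from the number alone. RefSeq, whose GRCm38.p6 release could be matched for 26 of the 34 genes, lists these 2 as protein coding and none of the other 24. The gene bodies, 1305 bases from the first to the last exonic base of Defa-ps8, differed at 2 positions, both in the intron, and the copies stayed 99.3% identical over an alignment of 41340 bases when 20000 bases were added on each side. Defa-ps3, Defa-ps5, Defa-ps9, Gm15300 and Gm15311 are related copies, with 90.1% to 91.2% identity to exon 1 of Defa-ps8, but their frame, read from the first annotated base, closes after 33 codons. Defa-ps5 (chr8:21709000-21709170, plus strand) shows where, with the stop codon in capitals.
Defa-ps5 exon 1: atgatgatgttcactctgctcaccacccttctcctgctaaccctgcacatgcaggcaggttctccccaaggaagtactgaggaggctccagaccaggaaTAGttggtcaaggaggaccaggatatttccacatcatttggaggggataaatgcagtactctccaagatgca

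How well a read can be assigned to 1 of these genes was described from the reference alone, as the share of the 75-base stretches of a gene's exons that occur in no other gene of the count table, on either strand. The median over the 34 genes was 42.5%, with 7 genes at 0% and 5 at 100%. A stretch was shared with a coding Defa gene by 5 of the 34. The share of stretches free of coding Defa sequence was 23.3% in Defa-ps18, where 171 of 223 stretches matched Defa28, 74.3% in Defa-ps4 and 75.3% in Defa-ps17, which match Defa30, 84.0% in Defa-ps7, which matches Defa39, and 98.5% in Defa-ps1. Defa-ps8 had no stretch of its own, since all 131 are shared with Gm15313, and Gm15313 had 2.24%. When stretches that hold at least 1 exonic base and run on into the flank were included, 16.4% of those of Defa-ps8 and 17.0% of those of Gm15313 occurred once in the genome. The sources do not say how reads that match several genes were counted. The 6 genes without any stretch of that wider kind that occurs once in the genome (Gm15305, Gm15309, Gm15311, Gm15312, Gm23568 and Gm24829) had 0 to 15 counts summed over the 8 libraries, and 3 of them had 0.

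**Figure D1:**
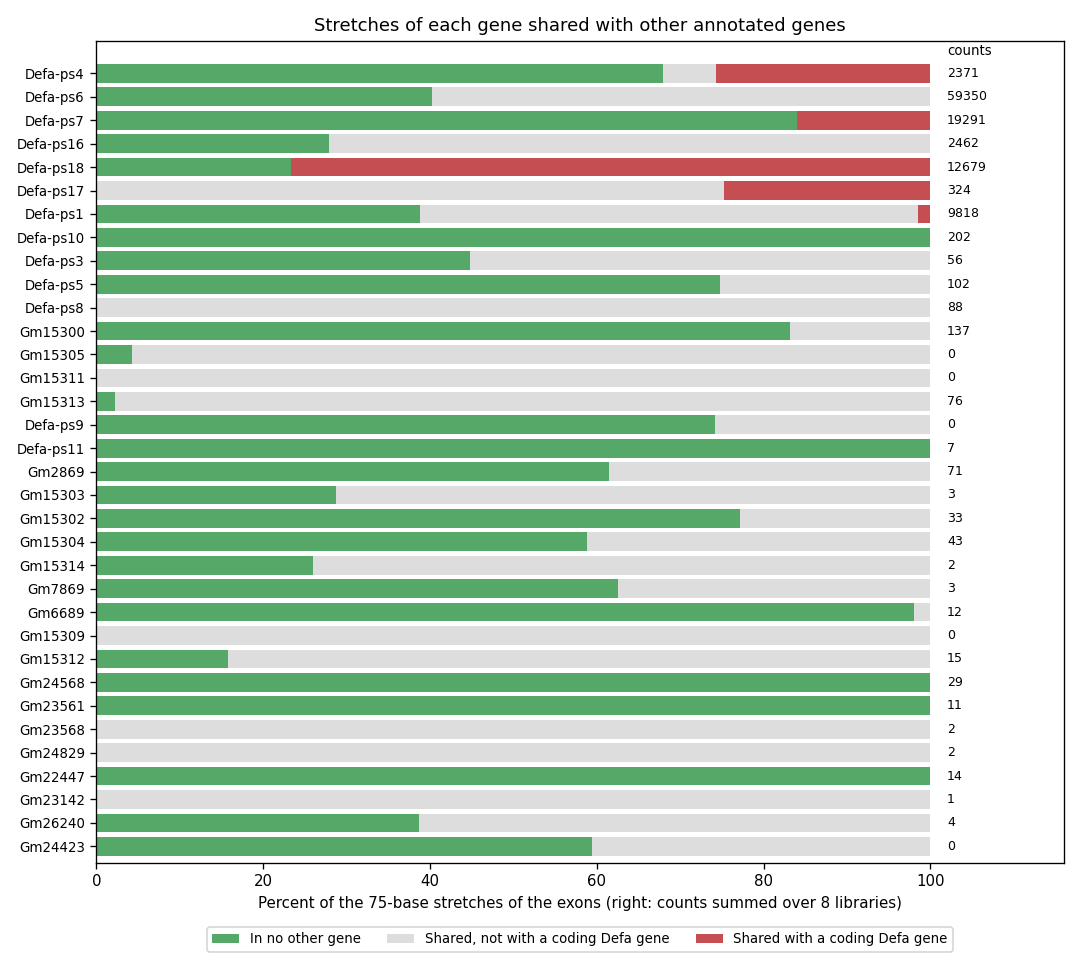
Horizontal bars give, for each of the 34 genes, the percent of its 75-base exonic stretches found in no other gene (green), shared with other genes but no coding Defa gene (grey) or shared with a coding Defa gene (red), with the counts summed over 8 libraries at the right. Red occurs in 5 genes and is widest in Defa-ps18, while Defa-ps8 is grey throughout.

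Levels were compared between genes as normalized CPM per kb of annotated exon in the PBS libraries. Defa-ps6 was the highest, at 962 ± 268 (SD, n = 4), followed by Defa-ps7 at 519 ± 117. Defa-ps1 (140 ± 21.6) and Defa-ps18 (138 ± 17.4) came next and did not differ beyond their spread. Below them were Defa-ps16 (72.6 ± 8.60), Defa-ps4 (45.9 ± 10.9), Defa-ps17 (9.36 ± 1.89), Defa-ps10 (6.18 ± 1.78) and Gm15300 (2.17 ± 1.04). The ranges of the 4 PBS libraries overlapped between 2 pairs of neighbours in this order, Defa-ps1 with Defa-ps18 and Defa-ps17 with Defa-ps10, and lay apart for the other 6. In these counts Defa-ps6 had 0.334% of the level of Defa24, the coding gene with the most counts. Of the exonic stretches of Defa24 91.8% occur once in the genome, and of those of Defa-ps6 40.3%, so read assignment may bear on this ratio. These levels hold only for reads that were assigned: the 8 coding Defa genes with no exonic stretch that occurs once in the genome (Defa2, Defa20, Defa23, Defa31, Defa32, Defa33, Defa36 and Defa37) were the 8 lowest of the 28, with 6 to 142 counts each over the 8 libraries. Few such stretches did not always go with few counts: Defa5, with 3.07% of its exonic stretches found once in the genome, had 639911. The part of read assignment in these levels was not tested. The 8 copies with a coding match held 106497 of the 107208 counts on the 34 genes.

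**Figure D2:**
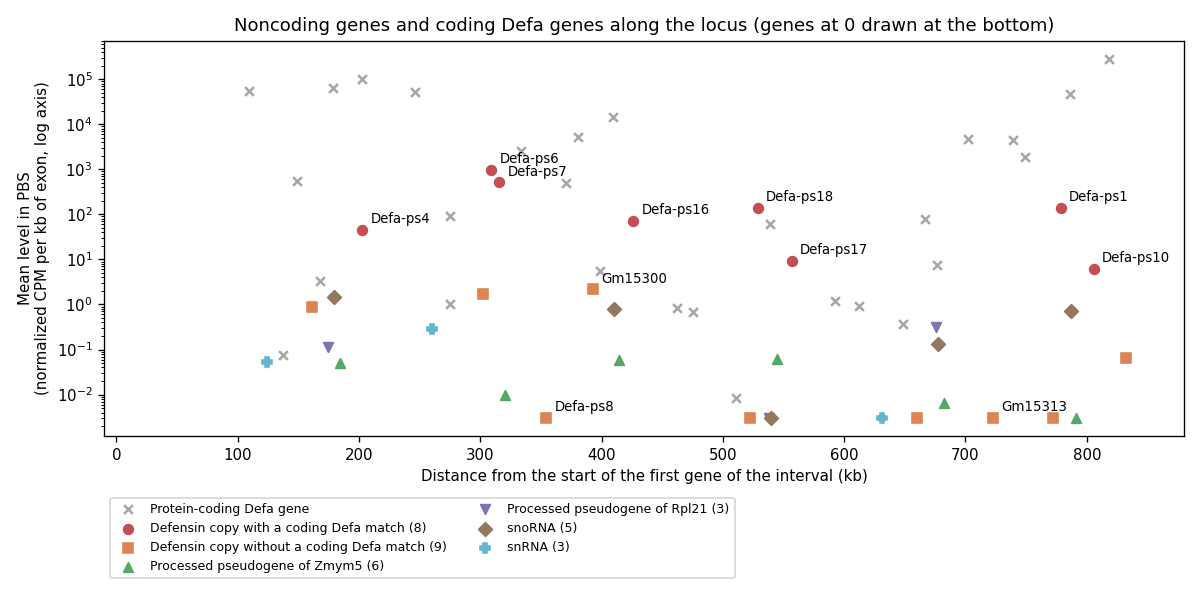
Mean level in the 4 PBS libraries (normalized CPM per kb of exon, log axis) against the distance of each gene from the start of the first gene of the interval (kb), with noncoding genes coloured by kind and coding Defa genes as grey crosses. Genes at 0 are drawn along the bottom, Defa-ps8 and Gm15313 among them, and Defa-ps6 and Defa-ps7 lie next to each other at the top of the noncoding genes.

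The series asks what TNF does to the RNA of Paneth cells. Of the 11 tested genes of the locus, 1 was lower (Defa-ps16) and 2 were higher (Defa-ps8 and Gm15313) in TNF at an adjusted p under 0.05 in edgeR's quasi-likelihood test. The 2 that were higher passed the filter on low counts only through TNF and so had to differ, which leaves 1 call among the other 9 genes. Of the 13368 genes tested in all 5747 (43%) were called, of which 23.4 percentage points were higher and 19.6 lower. Among the 218 tested pseudogenes of the genome 20.6% passed. On the log2 scale the median difference was 0.34 for the 11 genes and 0.03 for all tested genes, and without TNF replicate 4 it was -0.36 and -0.02. The 11 include the 2 that had to differ. Among the other 9 the gene in the middle had 0.20 (Defa-ps7), and without TNF replicate 4 it had -0.43 (Gm15300).

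Defa-ps8 had 0 counts in each of the 4 PBS libraries and 22, 32, 19 and 15 counts in TNF replicates 1 to 4. Gm15313, with the same exons, had 0, 0, 0 and 0 counts in PBS and 11, 35, 20 and 10 in TNF. Every TNF library thus lay above every PBS library for both copies, TNF replicate 4 included. Over the 4 PBS libraries together, 0 counts allow up to 3 counts, or 0.0224 normalized CPM. In TNF Defa-ps8 had 0.961 ± 0.287 normalized CPM (SD, n = 4) and Gm15313 had 0.790 ± 0.341. Pooled over the TNF libraries they had 0.905 and 0.782, at least 40.4-fold and 34.9-fold the PBS value by that limit. The limit covers counting error in PBS only, and the spread of the TNF libraries is not in these folds. No p is given for either copy, since their counts in TNF alone put them in the test. Of the 13368 tested genes, 10 were at 0 in all 4 PBS libraries.

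Since the exons cannot be told apart, the pair was also summed into 1 feature, a choice made after the values were seen. The sum was 0 in all PBS libraries and 33, 67, 39 and 25 in TNF, at least 75.2-fold higher by the same pooled measure. It is given with no test, since the pair was chosen for these counts. In TNF the pair together had 1.75 ± 0.566 normalized CPM (SD, n = 4), which counts the reads assigned to it. With so few stretches found once in the genome, the level of its RNA cannot be read from these counts. On the same scaling the coding neighbours were not called with all libraries: Defa40 and Defa3, on either side of Defa-ps8, had log2 fold changes of 1.16 (SE 0.55, adjusted p 0.117) and 0.08 (SE 0.42, adjusted p 0.895), and Defa26 and Defa17, on either side of Gm15313, had 1.08 (SE 0.52, adjusted p 0.117) and 0.63 (SE 0.46, adjusted p 0.291), all by edgeR. Without TNF replicate 4 Defa40 had 0.09 (adjusted p 0.717), Defa26 0.13 (adjusted p 0.548) and Defa17 -0.16 (adjusted p 0.449), and Defa3 was called lower, at -0.66 (SE 0.14, adjusted p 0.00195). The summed enteroendocrine markers, given above and with none of the 5 at 0, were also higher in every TNF library than in any PBS library, and their part in this result was not tested.

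**Figure D3:**
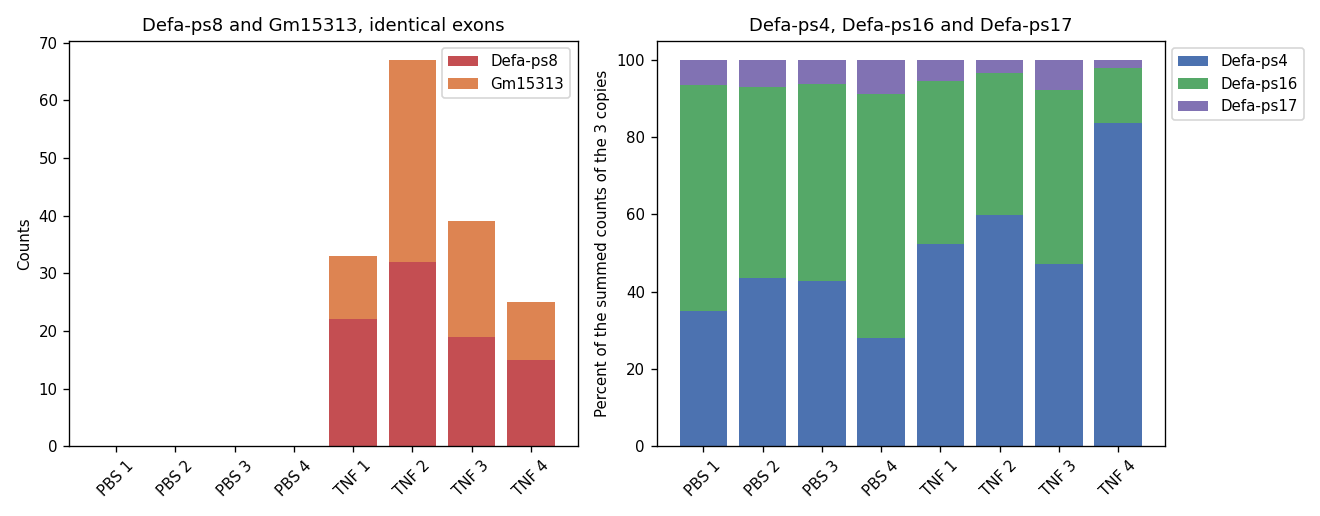
Left, counts of Defa-ps8 and Gm15313 stacked for each library. All 4 PBS libraries are empty and the TNF libraries hold 25 to 67 counts. Right, the share (percent) of each of Defa-ps4, Defa-ps16 and Defa-ps17 in their summed counts, with Defa-ps4 at 83.7% in TNF replicate 4.

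Defa-ps16, Defa-ps17 and Defa-ps4 are copies of exon 1 alone, with Defa26 as the closest coding gene (95.3% to 96.5% identity). Over 171 bases Defa-ps16 and Defa-ps17 differed at 1 position, Defa-ps17 and Defa-ps4 at 2, and Defa-ps16 and Defa-ps4 at 3. Their sequences are given because these positions, in capitals, are all that sets the 3 apart over the 171 bases. Of the 75-base stretches 27.8% of Defa-ps16, 67.9% of Defa-ps4 and 0% of Defa-ps17 were in no other gene. All 3 lie on the plus strand, Defa-ps16 at chr8:21832602-21832772, Defa-ps17 at chr8:21963267-21963437 and Defa-ps4 at chr8:21609182-21609364. Defa-ps4 overlaps an annotated exon of Defa30 on the same strand, where reads of the 2 genes cannot be told apart.
Defa-ps16: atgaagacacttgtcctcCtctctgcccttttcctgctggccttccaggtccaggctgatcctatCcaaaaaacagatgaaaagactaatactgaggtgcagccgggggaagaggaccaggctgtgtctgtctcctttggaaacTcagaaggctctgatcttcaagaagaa
Defa-ps17: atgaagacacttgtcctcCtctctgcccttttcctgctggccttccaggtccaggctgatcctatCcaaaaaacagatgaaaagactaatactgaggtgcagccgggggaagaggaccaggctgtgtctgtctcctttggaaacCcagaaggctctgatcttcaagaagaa
Defa-ps4: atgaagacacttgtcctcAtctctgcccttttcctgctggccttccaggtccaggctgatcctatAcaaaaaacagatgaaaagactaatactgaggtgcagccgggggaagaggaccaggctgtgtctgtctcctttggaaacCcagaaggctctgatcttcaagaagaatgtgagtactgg

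Defa-ps16 (ENSMUSG00000082918) had 430, 317, 298 and 646 counts in PBS and 228, 178, 293 and 72 in TNF, or 12.4 ± 1.47 against 7.68 ± 1.96 normalized CPM (SD, n = 4). All 4 TNF libraries lay below all 4 PBS libraries. It fell by 0.68 on the log2 scale (SE 0.18, adjusted p 0.0101, edgeR), and without TNF replicate 4 by 0.59 (SE 0.17, adjusted p 0.0125). The stem cell markers, given above, were also lower in every TNF library than in any PBS library, and their part in this result was not tested. With library size alone as the scaling it had -1.04 (adjusted p 0.0536) and did not pass. Defa-ps17 had 47, 45, 37 and 89 counts in PBS and 30, 16, 50 and 10 in TNF. The groups overlapped, and the difference of -0.58 in log2 (SE 0.34, adjusted p 0.191) did not pass the test. Defa-ps4 had 258, 278, 251 and 285 counts in PBS and 283, 288, 308 and 420 in TNF, with overlapping groups, and at 0.97 in log2 (SE 0.41, adjusted p 0.0785) it did not pass either, while DESeq2 called it (0.96, adjusted p 0.0331). The normalized CPM of Defa-ps4 in TNF were 10.04, 9.97, 10.8 and 36.1, so that its mean rested on TNF replicate 4, without which its log2 fold change was 0.31 (SE 0.17, adjusted p 0.151, edgeR).

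Within each library the balance between these copies needs no scaling. Defa-ps4 took 35.1%, 43.4%, 42.8% and 27.9% of the summed counts of the 3 copies in PBS and 52.3%, 59.8%, 47.3% and 83.7% in TNF. Defa-ps16 took 58.5%, 49.5%, 50.9% and 63.3% in PBS and 42.1%, 36.9%, 45.01% and 14.3% in TNF. Neither share overlapped between the groups. The sum itself was 735, 640, 586 and 1020 counts in PBS and 541, 482, 651 and 502 in TNF, and as 1 feature it differed by 0.17 in log2 (SE 0.26, adjusted p 0.621, edgeR), or by -0.18 (SE 0.12, adjusted p 0.246) without TNF replicate 4. The sum was thus not called in either fit, while Defa-ps16 alone was called in both. Whether reads moved between copies in counting was not tested. Defa-ps10, a further copy of exon 1 with all of its stretches its own, had 28, 38, 22 and 53 counts in PBS and 18, 15, 17 and 11 in TNF. The raw counts did not overlap between the groups and the normalized CPM did. The difference of -0.70 in log2 (SE 0.31, adjusted p 0.0919) did not pass, and without TNF replicate 4 it did, at -0.83 (SE 0.31, adjusted p 0.0445, edgeR), as it did with library size alone, at -1.12 (adjusted p 0.0419).

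Defa-ps6 and Defa-ps1 are 2-exon copies that differ at 2 of 282 positions, 1 in each exon, and both are closest to Defa25 (95.4% and 95.7% identity). They share 80 of their 134 stretches with each other. The frame of both closes after 63 codons, early in exon 2, with no in-frame cysteine codon of that exon before the stop. Exon 2 of Defa-ps6 (chr8:21716154-21716263, plus strand) is shown with that stop codon in capitals, as Defa-ps6 was the most abundant of the 34 genes. GENCODE also has a lncRNA gene without a row in the table, Gm64869, that overlaps both exons of Defa-ps6 on the same strand.
Defa-ps6 exon 2: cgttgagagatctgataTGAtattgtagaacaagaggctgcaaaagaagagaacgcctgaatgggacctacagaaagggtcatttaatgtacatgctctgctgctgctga

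Defa-ps6 (ENSMUSG00000095328) had 13453, 6439, 7613 and 8204 counts in PBS and 4006, 5061, 3825 and 10749 in TNF. TNF replicates 1 to 3 lay below every PBS library, and TNF replicate 4 lay within the PBS counts, and above them once scaled (923 normalized CPM against at most 361). The fit of all 8 libraries gave 0.34 in log2 (SE 0.58, adjusted p 0.664), that of the 7 others -0.84 (SE 0.20, adjusted p 0.00450, edgeR), so that the direction turned without this library. Defa-ps1 had 1453, 1128, 1157 and 1381 counts in PBS and 931, 1030, 960 and 1778 in TNF, where the raw counts of replicates 1 to 3 again lay below every PBS library and that of replicate 4 above them, while the normalized CPM of the groups overlapped. The same fits gave 0.68 (SE 0.46, adjusted p 0.259) and -0.19 (SE 0.13, adjusted p 0.223). Per 100 counts of Defa-ps6 there were 10.8 to 17.5 counts of Defa-ps1 in PBS and 16.5 to 25.1 in TNF.

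Defa-ps7, a copy of exon 1 on the minus strand (chr8:21722082-21722249) with 3 mismatches to Defa38 in 168 bases, had 2627, 2970, 2451 and 3156 counts in PBS and 1885, 1996, 1880 and 2326 in TNF. The raw counts of the groups did not overlap, but the normalized CPM did, with 66.9, 69.1, 66.0 and 200 in TNF and 70.4 to 110 in PBS. The fit of all libraries gave 0.20 in log2 (SE 0.35, adjusted p 0.676), and the fit without TNF replicate 4 gave -0.36 (SE 0.15, adjusted p 0.0719). Defa-ps18 (chr8:21935085-21936020, plus strand), with 97.1% identity to Defa28 and a frame open for 112 codons, had 1670, 1452, 1493 and 2077 counts in PBS and 1209, 1334, 1378 and 2066 in TNF, with overlapping groups. It differed by 0.61 in log2 (SE 0.42, adjusted p 0.259), or -0.14 (SE 0.11, adjusted p 0.309) without TNF replicate 4, and Defa28, with which it shares most of its stretches, differed by 0.40 (SE 0.40, adjusted p 0.451), or -0.32 (SE 0.10, adjusted p 0.0192) without it, all by edgeR. Gm15300 had 20, 8, 15 and 44 counts in PBS and 10, 18, 11 and 11 in TNF, with overlapping groups and a difference of -0.20 in log2 (SE 0.43, adjusted p 0.742). Of these, Defa-ps7, Defa-ps18 and Gm15300 did not pass the test in these TMM-scaled fits, with or without TNF replicate 4.

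**Figure D4:**
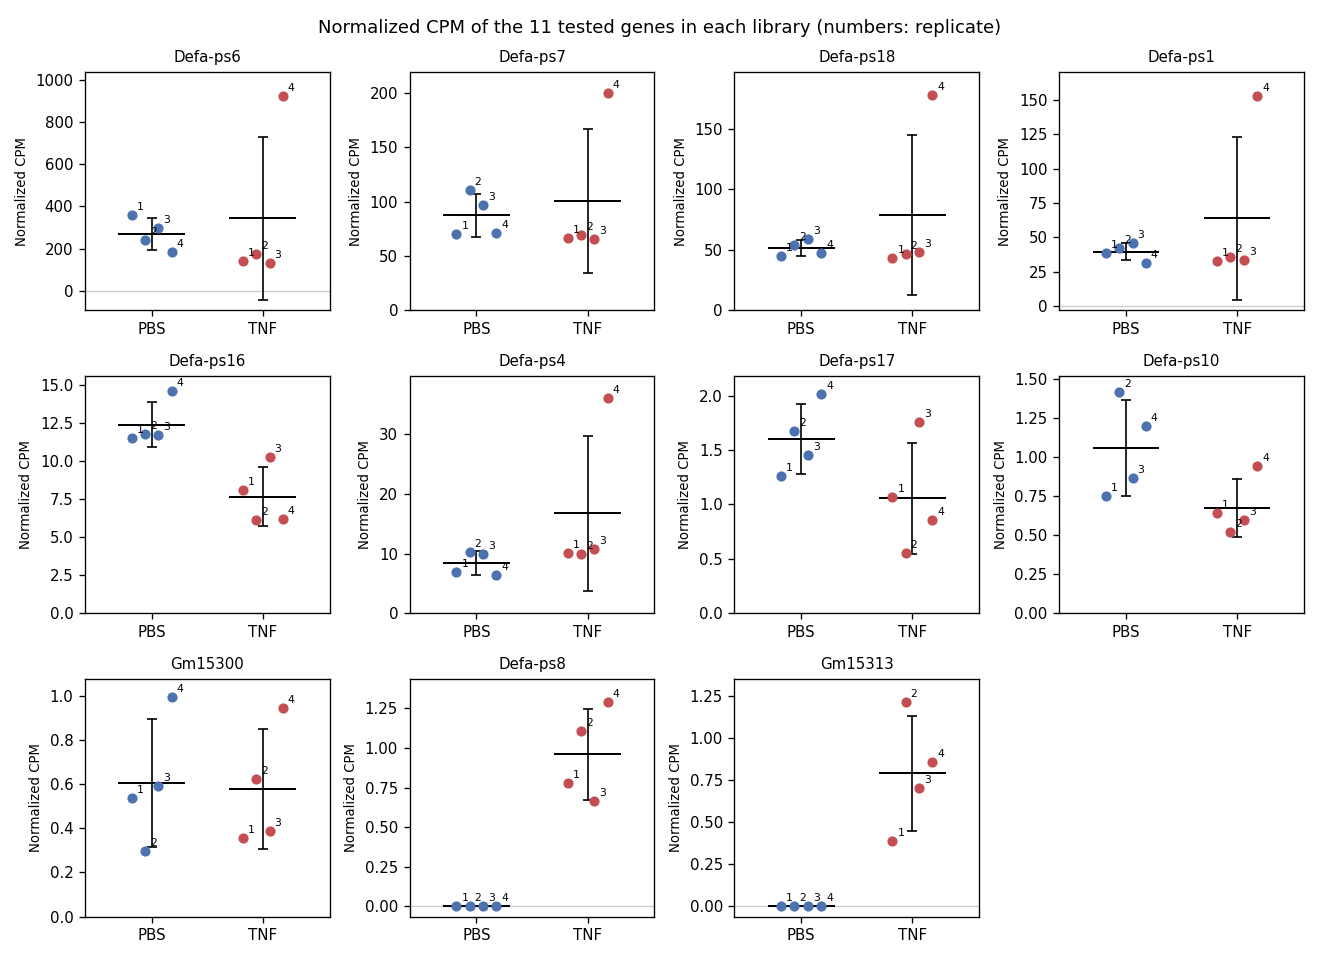
Normalized CPM of the 11 tested genes in each PBS (blue) and TNF (red) library, with the replicate number beside each point, the mean as a line and the SD (n = 4) as a bar. TNF replicate 4 is far above the other TNF libraries in Defa-ps6, Defa-ps7, Defa-ps18, Defa-ps1 and Defa-ps4, and Defa-ps8 and Gm15313 are at 0 in every PBS library.

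Because one library carried so much more coding Defa RNA, the 11 genes were also tested with each library scaled to its summed count of the 28 coding Defa genes, which asks whether a noncoding copy changed relative to the coding family. On this scale the median log2 fold change of all genes was -0.48 and that of the 11 genes -0.57. The 11 include Defa-ps8 and Gm15313, whose sign was fixed by the filter. Among the other 9 the gene in the middle, Defa-ps6, had -0.77. Of the 13368 genes 14.2% were called, and Defa-ps8 and Gm15313 were the 2 called genes of the locus. They were at least 27.1-fold and 23.4-fold higher by their pooled TNF counts. As both entered the test only through their TNF counts, this call adds nothing to the counts themselves. None was called lower. Among the genes that lay lower, Defa-ps6, Defa-ps16 and Defa-ps10 had an unadjusted p of 0.0426, 0.0269 and 0.0204 (edgeR). In the same fit 3928 of all 13368 genes had an unadjusted p under 0.05. Of the 9 genes with counts in PBS, 8 lay below 0, from -1.25 (SE 0.51, adjusted p 0.0992) for Defa-ps10 to -0.26 (SE 0.40, adjusted p 0.685) for Defa-ps1, and Defa-ps4 had 0.16 (SE 0.39, adjusted p 0.806). Without TNF replicate 4 Defa-ps6, at -1.04 (SE 0.22, adjusted p 0.00244), Defa-ps16, at -0.80 (SE 0.28, adjusted p 0.0407), and Defa-ps7, at -0.52 (SE 0.17, adjusted p 0.0295), were called lower too, in a fit that called 33.2% of all genes. Defa39, the coding gene that shares stretches with Defa-ps7, had -0.48 (SE 0.13, adjusted p 0.0124) with all libraries on this scale.

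These fits can be set beside counts scaled to 1000000 coding Defa counts. Defa-ps6 had 1357, 664, 843 and 786 in PBS and 442, 472, 415 and 804 in TNF, so that the groups overlapped through TNF replicate 4. Defa-ps7 had 265, 306, 271 and 303 in PBS and 208, 186, 204 and 174 in TNF, so that the groups did not overlap. Defa-ps16 had 43.4, 32.7, 33.0 and 61.9 in PBS and 25.2, 16.6, 31.8 and 5.39 in TNF, again without overlap, and Defa-ps10 did not overlap either. How many of all tested genes did not overlap on this scale was not counted, so the lack of overlap cannot be called particular to these copies. Defa-ps1, Defa-ps18, Defa-ps17 and Gm15300 overlapped between the groups. Defa-ps4, which overlaps Defa30, had 26.03, 28.7, 27.8 and 27.3 in PBS and 31.2, 26.9, 33.4 and 31.4 in TNF, with overlap. On this scale TNF replicate 4 lay within the range of the other libraries for Defa-ps4, and it was the lowest library for Defa-ps16.

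**Figure D5:**
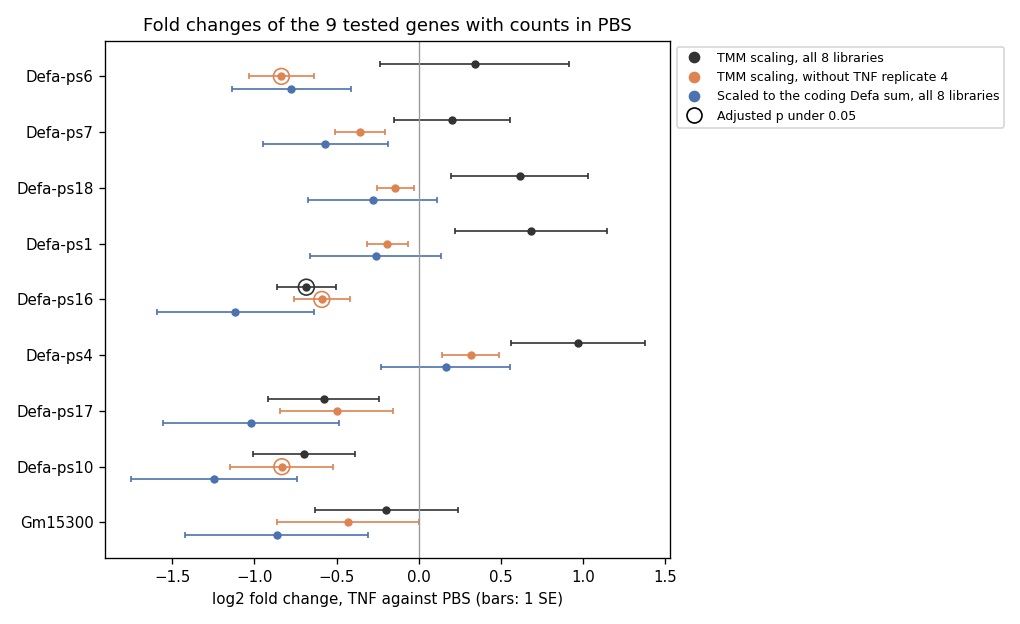
Log2 fold change of TNF against PBS for the 9 tested genes with counts in PBS (points, with bars of 1 SE), in 3 fits: TMM scaling with all libraries, TMM scaling without TNF replicate 4, and scaling to the coding Defa sum. Rings mark an adjusted p under 0.05. Defa-ps6, Defa-ps7, Defa-ps18 and Defa-ps1 lie above 0 only in the fit with TMM scaling and all libraries.

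Summed, the 34 genes held 0.0675%, 0.0496%, 0.0561% and 0.0493% of all counts in PBS and 0.0340%, 0.0346%, 0.0329% and 0.0674% in TNF. TNF replicates 1 to 3 were below every PBS library, and TNF replicate 4 was level with the highest. Per 1000 counts on coding Defa genes there were 1.31 to 2.02 counts on the 34 genes in PBS and 0.937 to 1.31 in TNF, with TNF replicate 4 the highest TNF value. Defa-ps6 alone made up 50.6% to 67.1% of these counts in PBS and 43.4% to 61.4% in TNF.

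The 23 genes that were not tested had 0 to 102 counts each over the 8 libraries. Defa-ps5 had the most, with 10, 8, 2 and 55 counts in PBS and 6, 2, 8 and 11 in TNF, and PBS replicate 4 alone held 55 of its 102. Defa-ps3 had 6, 6, 10 and 10 counts in PBS and 2, 8, 8 and 6 in TNF. The 6 processed pseudogenes closest to Zmym5 (91.9% to 93.5% identity) had 155 counts together. Among them Gm2869 had 8, 2, 4 and 4 counts in PBS and 8, 18, 12 and 15 in TNF. Its normalized CPM were 0.0744 to 0.214 in PBS and 0.284 to 1.29 in TNF, without overlap, and with no filter beyond 1 count it was called higher (edgeR, among 29 genes of the locus tested, 24.9% of all genes called). Gm15304 had 5, 8, 1 and 8 counts in PBS and 4, 5, 12 and 0 in TNF, and Gm15302 had 9, 2, 6 and 3 in PBS and 2, 5, 3 and 3 in TNF. In both the groups overlapped. The 3 pseudogenes closest to Rpl21 had 27 counts in all, and the 3 snRNA genes had 5.

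The 5 snoRNA genes had 10, 5, 2 and 27 counts together in PBS and 1, 4, 7 and 2 in TNF, 58 counts in all, of which PBS replicate 4 held 27. GENCODE also places 7 lncRNA genes without a row in the count table in this interval, which were not analysed here. Exons of 5 of them overlap Defa-ps1, Defa-ps6, Defa-ps7, Defa-ps18 and Gm15300 on the same strand.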

How the data were processed

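RNA was sequenced from sorted Paneth cells in 4 PBS and 4 TNF libraries, which the labels group, number and call biological replicates. The authors deposited a table of raw, unnormalized counts with 55414 Ensembl gene IDs and 8 columns, each matched to a label. The libraries summed to 23824717 to 32576077 counts. The submitters' processing notes name FastQC 0.12, STAR 2.7.10a, DESeq2 and the build mm39 (GRCm39). The counter, its strand setting and annotation release, and its treatment of reads with several matching genes are not given in the sources used, so that counts of near-identical and overlapping genes are uncertain one by one. No molecular identifiers are described, and limits from 0 counts cover counting error only. Per the study's text samples came from individual mice, which the labels do not state for each library.

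Gene types, exons and names were taken from GENCODE release 39 by Ensembl ID (54749 matched, 665 not). These genes and the marker lists were chosen with earlier results of these data known. A marker of the immune list is not reported here. TNF was tested against PBS over the whole table with edgeR 4.0.16 in R 4.3.3 (quasi-likelihood F test, TMM scaling, filterByExpr, no covariate), with Benjamini-Hochberg adjustment over all 13368 tested genes and calls at an adjusted p under 0.05. A further fit scaled each library to its summed coding Defa counts. The F statistic gave the standard errors. TMM-scaled library sizes gave the normalized CPM. The 34 genes were searched for shared stretches of 75 bases against transcripts of the genes with a row and against the GRCm39 genome, and aligned with BLAST+ 2.17.0. Every tested gene of the 34 is named, with the 5 untested ones that had the most counts and coding Defa genes that match, overlap or adjoin them. Further genes named were chosen after their values were seen. The fit was tested on simulated data. Alternatives were DESeq2 1.42.0, limma-voom (limma 3.58.1), other scalings and filters, the replicate number as a block, other stretch lengths and leaving out each library. Summing near-identical genes and counting stretches that touch an exon were chosen after seeing the data.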

Additional observations from a re-analysis of the deposited data

Results flagged for a closer look

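In 22 groups of 4 libraries (the 11 tested genes and the summed share of the 34 genes, groups with all values at 0 left out), 7 held a library whose gap to the nearest other exceeded Dixon's critical share of the group's range, where chance flags about 1 in 20 groups. TNF replicate 4 was that library in 6 of the 7, and these flags are not independent, since they come from the same library. In normalized CPM it had 923 for Defa-ps6 (next highest 175), 199.7 for Defa-ps7 (69.1), 177 for Defa-ps18 (48.4), 153 for Defa-ps1 (35.6) and 36.1 for Defa-ps4 (10.8). Its summed share of all counts was 0.0674% (next highest 0.0346%). For Defa-ps16 the library was PBS replicate 4, with 14.6 normalized CPM (next highest 11.8). Defa-ps8, Gm15313, Defa-ps17, Defa-ps10 and Gm15300 had no such library in either group.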

How the results depend on the processing

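The number of genes called over the whole table was 5747 and fell to 3182 with library size alone. For the noncoding genes of the locus, library size alone also gave 3 calls, with Defa-ps10 in place of Defa-ps16, beside 23.8% of all genes. DESeq2 gave 4, with Defa-ps4 added, beside 45.4% of all genes. The 3 calls, of 11 tested, became 5 of 29 with no filter beyond 1 count (Defa-ps4 and Gm2869 added), beside 24.9% of all genes. With 1 CPM required in 4 or more libraries 1 of 7 was called (Defa-ps16), beside 45.5% of all genes. Defa-ps8 and Gm15313 were not tested there. Leaving out 1 library gave 4 to 5 calls of 11 to 12 tested, beside 35.1% to 50.4% of all genes. All these counts but that with the 1 CPM filter include Defa-ps8 and Gm15313, whose counts lay in TNF alone. Leaving out any of the PBS libraries added Gm2869, TNF replicate 1 Gm2869 and Defa-ps4, TNF replicate 2 Defa-ps4, and TNF replicate 3 Defa-ps17 as lower. Without TNF replicate 4 Defa-ps6 and Defa-ps10 were added as lower, in a fit that called 50.4% of all genes, 23.8% of all as lower. Relative to the coding Defa sum the 2 calls became 0 with the 1 CPM filter, where 13.2% of all genes were called. There 2 of 7 tested genes had an unadjusted p under 0.05 in edgeR, beside 3390 of all 11925 genes. With 1 library left out the calls stayed at 2, beside 8.06% to 12.3% of all genes, or became 5 without TNF replicate 4, beside 33.2%. Of the 34 genes, 7 had no 75-base stretch of their own, 3 with 100 bases (among 29, as the 5 snoRNA genes are too short for such a stretch) and 0 against coding Defa genes only. The summed share differed by -0.0134 percentage points of all counts and by -0.0546 of the counts of the interval, and by -0.0218 of all counts without TNF replicate 4.

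Directions turned as follows, in log2. For Defa-ps6 limma-voom gave -0.13 and library size alone -0.52. Library size alone also gave -0.42 for Defa-ps7, -0.094 for Defa-ps18 and -0.062 for Defa-ps1, where the median of all genes moved to -0.38. Leaving out 1 library gave ranges of -0.84 to 0.61 for Defa-ps6, -0.36 to 0.36 for Defa-ps7, -0.14 to 0.79 for Defa-ps18, -0.19 to 0.90 for Defa-ps1 (each lowest without TNF replicate 4) and -0.43 to 0.14 for Gm15300 (highest without PBS replicate 4). Defa-ps16 summed with Defa-ps17 and Defa-ps4 gave 0.17. The cause of these turns was not tested. The replicate number as a block called the same number, 3 genes of the locus (38.1% of all genes), and 2 relative to coding Defa (6.49%), with -0.27 for Defa-ps6 in the former. Same-numbered libraries had correlations of their deviations of 0.02, 0.07, -0.14 and -0.13. Differently numbered ones had -0.13 to 0.24, so that whether the numbers pair the samples cannot be told from these values. Of 317 further values of single genes under an alternative, 294 kept their direction and side of the threshold, 10 passed it newly, 1 lost it and 12 turned. At these depths 0 counts in the 4 PBS libraries allow up to 0.0224 normalized CPM.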
